A study of Arabidopsis thaliana with 30 samples.

Results

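The response of wild-type Arabidopsis seedlings to high light was read from 6 arrays, 3 biological replicates taken after 3 h of high light and 3 taken at 0 h. They were chosen by their labels from the 30 arrays of the series and were compared across all 22746 non-control probe sets. The 3 h seedlings had stood in darkness for 3 h and then for 3 h in light of 1000 µE m-2 s-1. The 0 h seedlings had no high light. Both groups were Col-0 without transgene or mutation, were 12 days old, had grown on half-strength MS agar with 1% sucrose, and had been adapted for 7 d to constant dim light of 10 µE m-2 s-1. Seedlings were taken whole but without the root, and fewer cells of a type and less RNA per cell cannot be told apart in such samples. The other 24 arrays held the lines 35S:MBS1, RNAi-MBS2/mbs1-1, flu and mbs1-1 at the same 2 times, and they entered here through a shared estimate of the spread and through a comparison of responses at the end. The 0 h harvest is not placed before or after the dark period in the sources used here, so darkness, light and the hour of harvest cannot be told apart in any value below.

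Light in excess of what photosynthesis can use leaves chlorophyll excited and electrons without an acceptor, and the chloroplast then forms reactive oxygen. Leaves are known to answer by trimming the antenna of photosystem II, by making flavonoid sunscreens and by raising scavenging enzymes and chaperones. Darkness and dim light have a programme of their own, in which sugar falls, the kinase SnRK1 is active, and amino acids, lipids and cell material are broken down for energy. Elongation growth driven by auxin is also a mark of dim light.

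The arrays of 1 group correlated with each other at 0.994 to 0.995 at 3 h and at 0.992 to 0.994 at 0 h, and pairs across the groups at 0.944 to 0.953. Array means were 6.73 to 6.75 at 3 h and 6.71 to 6.88 at 0 h, where replicate 1 was the brightest and the other two were at 6.72 or less. Replicate 3 at 0 h had 18 probe sets that lay more than 2 log2 units above both other arrays of its group, against 0 to 3 in each of the other 5 arrays, and ATHSP22.0 and AT1G52560 were among them. The signal of 25S rRNA was 4.18 to 4.48 at 3 h and 5.02 to 5.17 at 0 h. The 3' minus 5' signal of an actin control was 5.17 to 5.26 at 3 h and 4.82 to 4.96 at 0 h. For a GAPDH control it was 2.17 to 2.27 at 3 h and 1.96 to 2.20 at 0 h, which overlapped. The part of RNA quality in the calls was not tested. Of the marker lists 2 of 5 shoot genes and 4 of 10 root genes were measured. The shoot markers RCA and LHCB4.1 were at 12.67 or above on every array, and the root hair gene EXPA7 was at 2.78 to 3.03, the level of bacterial control probe sets. The root markers PYK10 and AT1G12080 were not low, with PYK10 at 11.38 to 11.57 at 3 h and 11.66 to 12.04 at 0 h, and AT1G12080 at 10.08 to 10.58 at 3 h and 11.15 to 11.59 at 0 h. The root peroxidase AT5G17820 was at 3.60 to 4.58 at 3 h and 3.46 to 3.78 at 0 h. The part of root tissue in the results was not tested.

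A difference was called where its p-value, adjusted by the Benjamini-Hochberg method over all probe sets, was under 0.05 in limma's test. By this rule 45.5% of all probe sets changed, 4791 higher and 5554 lower at 3 h, which is 21.1% and 24.4%. Without the 0 h replicate 1, the brightest array, 4733 were higher and 4592 lower, so that which direction had more calls rested on that array. Counts of genes below are to be read against these shares. A log2 change of at least 1, that is a fold of at least 2, was reached by 1960 of the higher (8.62%) and 1841 of the lower (8.09%) probe sets. At least 2 was reached by 450 and 439 probe sets, at least 3 by 127 and 131, and at least 4 by 42 and 37. The most extreme changes, 8.06 and -7.48, belonged to probe sets that were not matched to 1 gene. The median change over all probe sets was -0.07. Over the 13355 genes named by 1 probe set each, 42.8% changed, 19.1% higher and 23.6% lower, with 7.57% higher and 7.5% lower by at least 1. The 3 arrays of 1 time did not overlap those of the other for 55.5% of all probe sets and 52.8% of the named genes. Levels below are log2 signal and differences are log2 fold changes ± SE, with n = 3 arrays at each time.

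Of the probe sets that rose by at least 1, 57 had a 0 h mean within the range of bacterial control probe sets (up to 3.69), and 60 of those that fell by at least 1 had such a mean at 3 h. Fold changes of those are not to be read as sizes.

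**Figure D1:**
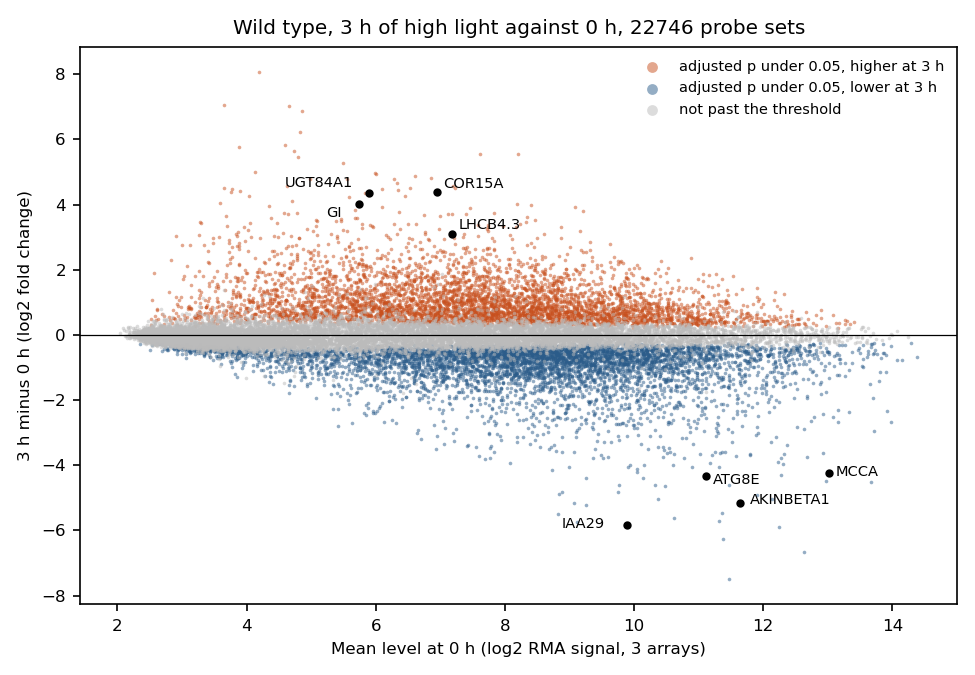
Each point is 1 of 22746 probe sets, with its mean log2 signal at 0 h (3 arrays) on the x axis and its log2 fold change, 3 h minus 0 h, on the y axis, coloured by limma's adjusted p. Changes ran from -7.48 to 8.06, and AKINBETA1, MCCA, ATG8E and IAA29 lay far below 0 while UGT84A1, COR15A, GI and LHCB4.3 lay far above it.

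The 10 named genes with the highest changes rose by 4.47 to 6.22, and most are listed by locus alone in the annotation. AT2G23910 was first, at 11.08, 11.06 and 11.01 at 3 h, against 5.0, 4.68 and 4.83 at 0 h, a difference of 6.22 ± 0.16 (adjusted p = 4.61e-20), or 74.3-fold. AT2G27420 followed with 10.25, 10.09 and 10.42 at 3 h, against 5.0, 4.96 and 4.44 at 0 h. AT1G06000 had 10.92, 10.63 and 10.78 at 3 h, against 5.47, 5.72 and 5.30 at 0 h. In these 3 the arrays of a group lay within 0.6 of each other and no array of one time came near those of the other. AT3G44450 (4.98 ± 0.22), AT5G42760 (4.95 ± 0.15), AT3G52740 (4.47 ± 0.15) and AT1G07050 (4.47 ± 0.19) followed, and COR15B and TBL26 are given below. AT1G71000 was the uneven one, with 9.10, 7.97 and 10.28 at 3 h, against 3.62, 4.16 and 4.60 at 0 h, and its groups still did not overlap. The 2 with a gene name among the 10 were AT2G42530, COR15B, a cold-induced protein of the chloroplast stroma, and AT4G01080, TBL26, of a family that acetylates cell wall sugars. COR15B stood at 11.83, 10.90 and 11.69 at 3 h, against 6.38, 6.81 and 6.65 at 0 h.

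Among the 10 genes with the lowest changes, between -4.82 and -6.65, were a subunit of the starvation kinase and a repressor of auxin signalling. AT4G27450 had 5.82, 6.84 and 5.30 at 3 h, against 12.65, 12.45 and 12.80 at 0 h, a difference of -6.65 ± 0.37 (adjusted p = 1.35e-13), or 100.2-fold. IAA29 (AT4G32280), an Aux/IAA protein known from shade, had 4.53, 3.71 and 3.91 at 3 h, against 9.93, 9.90 and 9.83 at 0 h. AKINBETA1 (AT5G21170), a beta subunit of SnRK1, had 6.44, 6.69 and 6.35 at 3 h, against 11.81, 11.51 and 11.60 at 0 h. For none of these 3 did a 3 h array come within 4 log2 units of a 0 h array. AT3G15450 was uneven at 3 h, with 5.99, 7.49 and 4.23 at 3 h, against 11.55, 11.18 and 11.34 at 0 h. Its change of -5.45 became -6.24 without the 3 h replicate 2 and -4.61 without the 3 h replicate 3. For AT2G17850 and AT3G62950 the 3 h means of 3.38 ± 0.31 (SD) and 3.33 ± 0.19 (SD) were at the level of the bacterial controls, so -5.73 and -5.50 describe a fall to background. AT3G29970 had 4.22, 5.91 and 5.20 at 3 h, against 11.68, 10.73 and 11.69 at 0 h, and its change of -6.26 ± 1.39 carries a wide error because the spread is that of all 10 groups. AT1G19530 (-5.17 ± 0.49), AT5G62280 (-5.02 ± 0.22) and AT4G39675 (-4.82 ± 0.95) make up the 10.

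**Figure D2:**
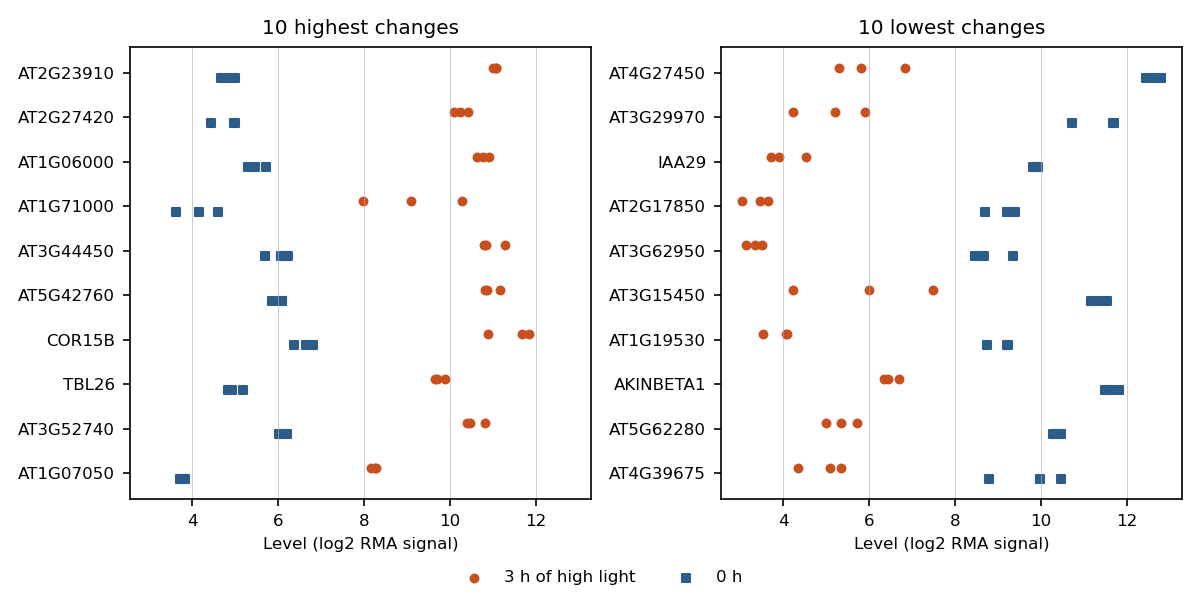
The x axis gives the log2 signal of each of the 3 arrays at 3 h (circles) and the 3 at 0 h (squares) for the 10 named genes with the highest and the 10 with the lowest changes. No gene's groups overlap, and the 3 h arrays of AT1G71000 and AT3G15450 are the most spread.

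Light signalling genes moved in both directions. GI (AT1G22770), a protein of the circadian clock and of day-length sensing, was the single clock gene measured, of 18 listed, and it stood at 9.89, 9.61 and 9.72 at 3 h, against 5.94, 5.65 and 5.62 at 0 h, a difference of 4.01 ± 0.17 (adjusted p = 5.30e-16). HYH (AT3G17609), a bZIP factor close to HY5, had 12.30, 12.28 and 12.39 at 3 h, against 11.12, 11.03 and 10.67 at 0 h. HAT2 (AT5G47370), a homeodomain factor of shade and auxin responses, had 7.06, 7.51 and 6.80 at 3 h, against 9.03, 8.51 and 8.59 at 0 h. GI and HYH were above and HAT2 below their 0 h levels on every array. With AT3G44450 and AT3G52740, which entered the light signalling list by locus, 3 of its 4 measured members rose and 1 fell, of 30 listed.

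3 further light genes, named after their values were seen, fell together. FHL (AT5G02200), which carries phytochrome A into the nucleus, had 4.01, 4.2 and 4.71 at 3 h, against 8.24, 7.33 and 7.74 at 0 h. GT-1 (AT1G13450) and GT2 (AT1G76890) are trihelix factors that bind promoters of light-regulated genes, and they fell by 2.15 and 2.11 (± 0.13 and 0.18). COR27 (AT5G42900), a cold-induced protein that acts on the clock, rose by 2.66 ± 0.28.

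The measured genes of flavonoid and phenylpropanoid synthesis rose: 8 of 8 were called higher, against 21.1% of all probe sets. Their median change was 1.78, against -0.07. 29 genes were listed, and the first enzyme, chalcone synthase, was not among the 8. Most of the 8 encode enzymes that attach sugars: UGT84A1, UGT78D2, UGT78D1, UF3GT, AT1G06000 and AT4G14090. DFR and HCT were the only others, so the count does not speak for the whole path. AT1G06000, given above, was the highest of the 8, at 5.28. UGT84A1 (AT4G15480), which links glucose to hydroxycinnamic acids, had 10.42, 10.23 and 10.08 at 3 h, against 6.17, 5.65 and 5.86 at 0 h, a difference of 4.35 ± 0.14 (adjusted p = 4.63e-18). UGT78D2 (AT5G17050), which adds glucose to flavonols and anthocyanidins, had 11.07, 10.95 and 11.29 at 3 h, against 7.92, 7.76 and 7.54 at 0 h. Neither gene had arrays of the 2 times within 3 log2 units of each other. UGT78D1 (AT1G30530), which adds rhamnose to flavonols, rose to 13.15 ± 0.09 (SD) at 3 h, against 11.27 ± 0.17 (SD) at 0 h.

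DFR (AT5G42800), dihydroflavonol reductase of the anthocyanin branch, had 6.42, 5.70 and 5.31 at 3 h, against 4.70, 3.92 and 3.77 at 0 h, a difference of 1.68 ± 0.38 (adjusted p = 5.76e-04). UF3GT (AT5G54060), which adds xylose to anthocyanins, rose by 0.64 ± 0.19 and AT4G14090 by 1.13 ± 0.20. HCT (AT5G48930), an enzyme of the lignin branch, had the smallest rise at 0.57 ± 0.10. CHIL (AT5G05270), a protein that helps chalcone synthase, was picked after its values were seen and had 11.30, 11.40 and 11.31 at 3 h, against 7.34, 7.58 and 7.45 at 0 h.

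The family of glycosyltransferases to which the UGT genes belong was split. Of 51 measured members 17 rose and 12 fell, and the median change was -0.05. Beside the 3 above, UGT73C1 (AT2G36750), active on cytokinins, rose by 3.35 ± 0.30 and UGT85A4 (AT1G78270) fell (-2.81 ± 0.14). UGT76E11 (AT3G46670) rose by 2.66 ± 0.21, and UGT76C2 (AT5G05860), a cytokinin glucosyltransferase, changed by -1.44 ± 0.13, both picked after their values were seen. Nearly identical copies in this family can share probes, and this was not tested.

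Genes of darkness and sugar starvation fell. All 4 measured members of the list were called lower, of 22 listed, with a median of -3.60, and AKINBETA1 above is 1 of them. MCCA (AT1G03090), the biotin-bearing subunit of methylcrotonoyl-CoA carboxylase in leucine breakdown, had 8.80, 8.75 and 8.82 at 3 h, against 13.03, 13.03 and 12.98 at 0 h, a difference of -4.22 ± 0.16 (adjusted p = 8.58e-17). IVD (AT3G45300), isovaleryl-CoA dehydrogenase of the preceding step, had 8.46, 8.44 and 8.70 at 3 h, against 11.43, 11.72 and 11.37 at 0 h. The 3 arrays of each time lay within 0.4 of each other for both genes. BZIP53 (AT3G62420), a factor of the starvation response, had -0.37, and its call was lost without the 0 h replicate 1 or 3 (-0.34 and -0.36) and without the 3 h replicate 1 or 3 (-0.34 for each).

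Other genes for the breakdown of branched-chain amino acids, picked after values were seen, were lower too. With both genes just given they made a set of 5, which speaks for its members alone, and 5 of 5 fell. MCCB (AT4G34030), the partner subunit of MCCA, changed by -1.79 ± 0.14 and ETFQO (AT2G43400), which passes electrons from these oxidations to ubiquinone, by -2.54 ± 0.18. ALDH6B2 (AT2G14170), of valine breakdown, changed by -1.18 ± 0.15. 3 single genes were looked up afterwards as well. ALN (AT4G04955), allantoinase, had 4.71, 4.85 and 4.70 at 3 h, against 7.99, 7.62 and 7.65 at 0 h. AAH (AT4G20070), the next enzyme of ureide breakdown, changed by -2.06 ± 0.16 and SDP1 (AT5G04040), a lipase of stored oil, by -2.39 ± 0.17.

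Autophagy genes were nearly all lower at 3 h: 10 of 11 fell, against 24.4% of all probe sets, and 8 of them by at least 1. ATG8 proteins are small ubiquitin-like tags fixed to the membrane of the autophagosome, and 9 of the 11 encode them. ATG8E (AT2G45170) had 6.75, 7.45 and 6.21 at 3 h, against 11.17, 11.18 and 11.01 at 0 h, a difference of -4.32 ± 0.23 (adjusted p = 4.22e-14). ATG8F (AT4G16520) had 10.70, 10.79 and 10.75 at 3 h, against 12.63, 12.70 and 12.68 at 0 h. APG8A, APG8H, ATG8G, ATG8C and ATG8H fell by 1.59, 1.34, 1.18, 1.17 and 1.11, and ATG8B by 0.75. ATG8D (AT2G05630) was the exception among them, with 8.94, 9.04 and 9.24 at 3 h, against 8.78, 8.70 and 8.96 at 0 h and a difference of 0.26 ± 0.15 that was not called (adjusted p = 0.148). ATG3 (AT5G61500), the enzyme that hands ATG8 to its lipid, changed by -0.76 ± 0.11 and AT5G66930 by -1.07 ± 0.16.

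Of 12 ubiquitin-conjugating enzymes, a set put together after values were seen, 5 fell and 2 rose. UBC16 (AT1G75440) and UBC19 (AT3G20060) changed by -1.39 ± 0.12 and -1.19 ± 0.14. The higher ones were UBC37 (0.77) and UBC29 (0.36), and UBC29 lost its call without the 0 h replicate 2 (0.20) or the 3 h replicate 2 or 3 (0.34 and 0.33). The call of UBC29 was also lost with the compared arrays only (limma's adjusted p = 0.0958). Among 9 U-box ubiquitin ligases, also chosen then, PUB19 (AT1G60190) and PUB23 (AT2G35930), both known from drought, rose by 1.94 ± 0.23 and 1.47 ± 0.34. In all 4 of the 9 rose and 1 fell, and 2 rose without the 0 h replicate 2.

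The minor antenna protein CP29 of photosystem II is encoded by 3 genes, and they changed in opposite directions. LHCB4.3 (AT2G40100) had 10.13, 10.37 and 10.36 at 3 h, against 6.92, 7.28 and 7.34 at 0 h, a difference of 3.11 ± 0.17 (adjusted p = 1.04e-13). LHCB4.2 (AT3G08940) had 11.61, 11.43 and 11.65 at 3 h, against 13.93, 13.95 and 13.87 at 0 h, a difference of -2.35 ± 0.16 (adjusted p = 5.17e-12). LHCB4.1 (AT5G01530) had 13.14, 13.15 and 13.11 at 3 h, against 14.01, 13.74 and 13.74 at 0 h. The groups did not overlap for any of the 3. Levels of different probe sets are not comparable, so that the values give each gene's own change and not their order.

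Several other nuclear genes of the photosystems fell a little. Of 9 measured genes of antenna and photosystems, a set put together after values were seen and including the 3 above, 6 fell and 2 rose, with a median of -0.48. PSAE-1, PSB27, PSAN and PSBW, small subunits or assembly proteins of photosystems I and II, fell by 0.56, 0.52, 0.48 and 0.46. LIL3:1 (AT4G17600), a light-harvesting-like protein of chlorophyll synthesis, rose by 0.58 ± 0.13. The 3 measured genes of the Calvin cycle were not called, with RCA at -0.15, PRK at 0.02 and SBPASE at 0.20. SBPASE was called after quantile normalization, at 0.28.

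Synthesis of tetrapyrroles, the path to chlorophyll and heme, was lower in 6 of 8 measured genes, and none was called higher. PORB (AT4G27440), which reduces protochlorophyllide in the light, had 9.55, 9.71 and 9.63 at 3 h, against 11.57, 11.23 and 11.63 at 0 h, a difference of -1.85 ± 0.19 (adjusted p = 1.01e-08). CHLM (AT4G25080), the methyltransferase of the magnesium branch, had 10.95, 11.08 and 11.02 at 3 h, against 12.10, 12.44 and 12.34 at 0 h. The earlier enzymes HEMB1 (-0.67), HEME2 (-0.61) and HEME1 (-0.36) fell less. HEMA2 (-0.26) and GSA1 (-0.05), which make the first precursor, were not called. CHLI2, a subunit of magnesium chelatase, changed by -0.29, a call that was lost without any 1 of 5 arrays (-0.25 to -0.30) and held without the 0 h replicate 2. The call of CHLI2 was also lost with the compared arrays only (limma's adjusted p = 0.0575).

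Transcripts of the chloroplast's own genome had values below 0 nearly throughout, and most were not called. Of 69 plastid genes measured, grouped by complex after values were seen, 66 had a value below 0 and 25 were called lower, 36.2% against 24.4% of all probe sets, and none was called higher. Their median was -0.52. Of the subunits of the plastid RNA polymerase and ribosome 13 of 19 were lower. rps2 had 7.50, 7.32 and 7.33 at 3 h, against 8.47, 8.47 and 8.28 at 0 h, rpl22 changed by -0.97 ± 0.13, rpoC1 by -0.78 ± 0.15 and rpoC2 by -0.90 ± 0.30. The assembly factor gene ycf3 had 7.73, 7.50 and 7.71 at 3 h, against 9.05, 8.94 and 8.70 at 0 h. rbcL, the large subunit of Rubisco, had 8.73, 8.79 and 9.06 at 3 h, against 8.88, 8.82 and 8.88 at 0 h, which overlapped.

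For the genes of the plastid complexes fewer calls were made: 7 of 26 for the photosystems and the cytochrome complex, 1 of 10 for the NADH dehydrogenase, and 1 of 7 for ATP synthase with Rubisco. These counts rest on the spread shared by all 10 groups. With the spread of the 6 wild-type arrays alone they were 18, 7 and 5, and 52 of the 69 genes were called lower. Without the 3 h replicate 2 the photosystem and cytochrome count was 3 and without the 0 h replicate 3 it was 4, and the ATP synthase and Rubisco count was 2 without the 0 h replicate 1. The NADH dehydrogenase call, ndhJ at -0.55, was lost without the 0 h replicate 2 or 3 or the 3 h replicate 1 or 2 (-0.47, -0.52, -0.46 and -0.58). Of 16 mitochondrial genes 2 were called lower, nad5 (-0.66) and ccb382 (-0.56), and 0 were called without the 0 h replicate 2 or the 3 h replicate 3 and 1 without the 0 h replicate 1 or the 3 h replicate 2. How the cDNA was primed is not given in the sources used here, and organelle RNA is largely without poly(A) tails.

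Pentatricopeptide repeat proteins bind single sites of plastid or mitochondrial RNA and edit, cut or stabilise them. Among 14 with a gene name, 9 rose and none fell, against 21.1% and 24.4% of all probe sets. The 14 were put together after values were seen and speak for themselves alone. PPR596 (AT1G80270), of mitochondria, had 10.54, 10.42 and 10.52 at 3 h, against 8.54, 8.24 and 8.42 at 0 h, a difference of 2.09 ± 0.19 (adjusted p = 7.16e-10). OTP81 (AT2G29760), a plastid editing factor, had 7.95, 8.01 and 7.99 at 3 h, against 6.17, 6.05 and 5.95 at 0 h. CRR21 (AT5G55740) and LPA66 (AT5G48910), also plastid editing factors, rose by 1.69 ± 0.19 and 1.06 ± 0.16. OTP43, OTP70, OTP85, OTP86 and CRR28 lay between -0.10 and 0.32 and were not called.

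Among 10 subunits of the nuclear RNA polymerases, 8 rose and none fell (5 rose without the 3 h replicate 2). Over all probe sets 21.1% rose and 24.4% fell. By their gene names 6 of the set are assigned to RNA polymerase II and 2 each to I and III, though some subunits are shared between the polymerases. It was put together after values were seen and speaks for its members alone. NRPA1 (AT3G57660), the largest subunit of RNA polymerase I, had 8.77, 8.90 and 8.78 at 3 h, against 7.28, 6.77 and 7.04 at 0 h. NRPA2 (AT1G29940), its partner, had 8.42, 8.44 and 8.17 at 3 h, against 6.97, 6.54 and 6.58 at 0 h. NRPC2 (AT5G45140), of RNA polymerase III, rose by 1.33 ± 0.16 and NRPB7 (AT5G59180), of RNA polymerase II, by 1.08 ± 0.15. Every 3 h array of the 2 polymerase I subunits stood at least 1 above every 0 h array. The nucleolar proteins IMP4 (AT1G63780) and YAO (AT4G05410), which process ribosomal RNA, were picked singly after their values were seen and rose by 1.27 ± 0.15 and 2.02 ± 0.21.

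Among 16 chaperones and their helpers, 9 rose and 2 fell, against 21.1% and 24.4% of all probe sets. The set was put together after values were seen and speaks for its members alone. Hsp70-2 (AT5G02490), of the cytosol, had 11.63, 11.53 and 11.78 at 3 h, against 8.22, 7.97 and 8.53 at 0 h, a difference of 3.41 ± 0.18 (adjusted p = 3.76e-14). Cpn60beta4, Cpn60beta2 and Cpn60beta3, beta subunits of the chloroplast chaperonin, rose by 1.97 ± 0.14, 1.73 ± 0.18 and 1.53 ± 0.16. ATERDJ3B (AT3G62600), a J protein of the endoplasmic reticulum, rose by 1.26 ± 0.12.

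The 3 Fes1 genes, which encode nucleotide exchange factors of Hsp70, were split. Fes1A (AT3G09350) had 8.75, 8.49 and 9.40 at 3 h, against 5.90, 6.12 and 7.17 at 0 h. Fes1B (AT3G53800) had 6.11, 6.34 and 5.89 at 3 h, against 8.74, 8.57 and 8.66 at 0 h. Fes1C (AT5G02150) had 6.12, 6.40 and 6.23 at 3 h, against 7.70, 8.02 and 7.87 at 0 h. Fes1A was above and the other two below their 0 h levels on every array. Replicate 3 was the highest of the 0 h arrays for Fes1A and, more so, for Hop3 (AT4G12400), a link between Hsp70 and Hsp90, which had 9.79, 9.69 and 10.18 at 3 h, against 7.07, 7.35 and 9.35 at 0 h. ATHSP22.0 (AT4G10250), a small heat shock protein, was not called, with 4.44, 4.72 and 4.81 at 3 h, against 2.99, 3.01 and 7.89 at 0 h. Without the 0 h replicate 3 it was called higher, at 1.66.

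Antioxidant enzymes had no common direction. Of 8 measured, of 32 listed, 2 rose and 2 fell. SAPX (AT4G08390), the ascorbate peroxidase of the chloroplast stroma, had 11.03, 11.03 and 10.87 at 3 h, against 8.11, 9.05 and 9.68 at 0 h, a difference of 2.03 ± 0.23 (adjusted p = 6.62e-08). TAPX (AT1G77490), its counterpart on the thylakoid membrane, had 9.25, 9.27 and 9.50 at 3 h, against 10.52, 10.27 and 10.26 at 0 h, a difference of -1.01 ± 0.14 (adjusted p = 1.94e-06). The 2 isoforms thus went opposite ways without overlap, and the 0 h arrays of SAPX were spread over 1.57. GR1 (AT3G24170), a glutathione reductase, rose by 0.77 ± 0.11. SRX, sulfiredoxin, was at -0.40 and lost its call without the 0 h replicate 2 or the 3 h replicate 1 (-0.33 and -0.34). The other 4 lay between -0.08 and 0.25 and were not called.

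Proteins that repair or avoid oxidation were followed as well, all named after their values were seen. MSRB6 (AT4G04840) and MSRB5 (AT4G04830), methionine sulfoxide reductases, rose by 2.70 ± 0.19 and 1.19 ± 0.20, while MSRB3 (-0.09) and MSRB9 (0.65) were not called. CHL (AT3G47860), a lipocalin of the chloroplast that guards against lipid peroxidation, had 11.74, 11.61 and 11.74 at 3 h, against 9.65, 9.51 and 9.90 at 0 h. AOR (AT1G23740), a reductase of reactive carbonyls, and ATMDAR2 (AT5G03630), a monodehydroascorbate reductase, rose by 1.66 ± 0.15 and 1.49 ± 0.16. CCS (AT1G12520), the copper chaperone of superoxide dismutase, changed by -1.46 ± 0.14. Of 13 glutaredoxins and thioredoxins 2 rose, 3 fell and 8 were not called, 38.5% called against 45.5% of all probe sets. The 2 that changed by at least 1 both fell. They were TRXF2 (AT5G16400), a thioredoxin that activates Calvin cycle enzymes in light, at 8.19, 8.16 and 8.06 at 3 h, against 10.32, 10.59 and 10.28 at 0 h, and ROXY2 (AT5G14070) at -1.68.

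A few cold and drought genes rose strongly and the others of their list were not called: 4 of 10 rose and none fell. The list was gathered by gene name, so those not called need not all be genes of cold or drought. COR15A (AT2G42540), the neighbour and close copy of COR15B, had 11.43, 10.92 and 11.60 at 3 h, against 7.21, 6.67 and 6.96 at 0 h, a difference of 4.37 ± 0.33 (adjusted p = 3.89e-11). LTI30 (AT3G50970), a dehydrin, had 7.54, 7.36 and 6.91 at 3 h, against 3.18, 3.93 and 4.79 at 0 h, and its 0 h arrays were uneven. The 6 uncalled members, COR47 among them, lay between -0.27 and 0.25. The whole list had a median of 0.15, against -0.07 over all probe sets.

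Families that carry stress and hormone signals went both ways. Of 7 WRKY factors 2 rose and 2 fell, of 9 calcium sensors 3 rose and 2 fell, of 2 jasmonate genes 1 rose, and both ethylene genes fell. The WRKY factors that fell were 1 with the compared arrays only and without the 0 h replicate 1 or 3 or the 3 h replicate 3, and the calcium sensors that fell were 1 without the 3 h replicate 3. WRKY53 (AT4G23810), a factor of senescence and defence, had 11.29, 11.37 and 10.47 at 3 h, against 7.84, 7.04 and 8.34 at 0 h. CML37 (AT5G42380), a calmodulin-like calcium sensor, rose by 2.24 ± 0.26, and CML30 (AT2G15680) changed by -2.0 ± 0.15. JMT (AT1G19640), which makes methyl jasmonate, rose by 1.97 ± 0.24. The ethylene factor EIN3 (AT3G20770) was lower, at 9.40, 9.45 and 9.34 at 3 h, against 10.79, 10.74 and 10.80 at 0 h. STZ (AT1G27730), a zinc finger repressor of the stress response picked after its values were seen, had 10.94, 10.47 and 9.97 at 3 h, against 7.31, 6.92 and 7.87 at 0 h.

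Of 12 measured auxin genes 5 fell, none rose and 7 were not called. That is 41.7% called, close to the 45.5% of all probe sets, of which 24.4% fell and 21.1% rose. IAA29 was given above. GH3.3 (AT2G23170) and WES1 (AT4G27260), enzymes that join auxin to amino acids, had 5.70, 5.37 and 5.36 at 3 h, against 8.25, 7.89 and 7.45 at 0 h, and 5.81, 5.70 and 5.04 at 3 h, against 8.10, 7.67 and 7.61 at 0 h. IAA18 (AT1G51950) changed by -1.32 ± 0.13 and GH3.9 by -0.66. IAA20, IAA30, IAA31, IAA33 and IAA34, which are dim on these arrays, lay between 0.02 and 0.25 and were not called, nor were GH3.17 (-0.33) and GH3.1 (-0.12). ARL (AT2G44080), a promoter of cell expansion picked after its values were seen, changed by -2.06 ± 0.28.

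Wall genes changed in both directions. Of 29 expansins and xyloglucan endotransglucosylases 5 rose and 7 fell. That is 41.4% called, close to the 45.5% of all probe sets, so the count does not set them apart. EXPA8 (AT2G40610), an expansin, had 3.57, 3.67 and 4.39 at 3 h, against 7.31, 7.96 and 7.53 at 0 h, a difference of -3.72 ± 0.21 (adjusted p = 1.30e-13). EXPA16 (AT3G55500) changed by -2.58 ± 0.42, and EXPA15 (AT2G03090), picked after its values were seen, rose by 1.04 ± 0.24. Of the second family XTH19 (AT4G30290) and XTH32 (AT2G36870) rose by 1.92 ± 0.45 and 1.79 ± 0.18. The TBL family, also a set added after values were seen, was lower in 10 of 22 members and higher in 3. TBL26 had the highest change, with 9.90, 9.66 and 9.70 at 3 h, against 4.84, 5.18 and 4.92 at 0 h, and TBL41 (AT3G14850) followed with 2.35 ± 0.22. TBL45 (AT2G30010) was the lowest, at -1.51 ± 0.14. ATPMEPCRB (AT4G02330), a pectin methylesterase, rose by 2.04 ± 0.35. Of 5 beta tubulins, chosen after values were seen, TUB5 (AT1G20010) changed by -1.41 ± 0.13 and TUB9 (AT4G20890) by 1.01 ± 0.14.

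**Figure D3:**
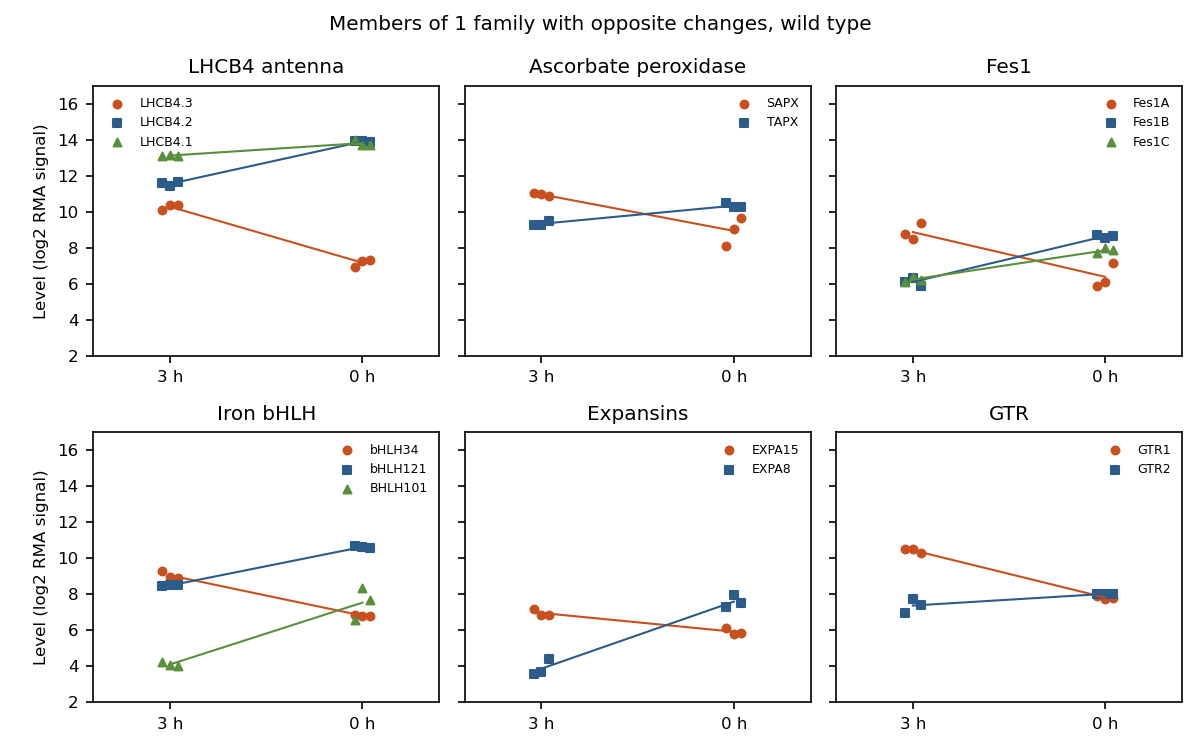
Families, picked because their members differed in direction, are shown. The y axis gives the log2 signal of each array at 3 h (left) and 0 h (right) for members of 6 of them, with lines through the group means. One member of each family was higher at 3 h and at least 1 other was lower, such as SAPX against TAPX and Fes1A against Fes1B and Fes1C.

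Factors of the bZIP family fell more often than they rose. Of 22 bZIP factors 10 fell and 3 rose, with BZIP61 (AT3G58120) at -3.14 ± 0.27 and BZIP34 (AT2G42380) at -2.06 ± 0.21 the lowest. BZIP60 (AT1G42990), a factor of stress in the endoplasmic reticulum, rose by 0.95 ± 0.20 and BZIP28, which acts beside it, was at -0.56.

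6 factors of the iron response, a set added after values were seen, were split: 1 rose and 3 fell. bHLH34 (AT3G23210), which turns on iron uptake genes, had 9.30, 8.98 and 8.90 at 3 h, against 6.87, 6.79 and 6.80 at 0 h. bHLH121 (AT3G19860), with which it can pair, had 8.47, 8.50 and 8.53 at 3 h, against 10.70, 10.63 and 10.59 at 0 h. BHLH101 (AT5G04150), a factor raised under iron shortage, had 4.22, 4.09 and 4.03 at 3 h, against 6.59, 8.39 and 7.67 at 0 h. The first was higher and the other two lower at 3 h without overlap. ILR3 was at -0.47, and bHLH104 (-0.08) and bHLH115 (0.08) were not called.

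Starch genes rose or were not called, and genes for moving sugar went both ways. APL3 (AT4G39210), a subunit of the enzyme that feeds starch synthesis, had 9.34, 9.07 and 9.41 at 3 h, against 5.54, 5.68 and 5.83 at 0 h, a difference of 3.59 ± 0.22 (adjusted p = 7.20e-13). Of the 3 starch genes measured 2 rose, and DPE1 (0.15), an enzyme of starch breakdown, was not called. SWEET13 (AT5G50800), a sucrose exporter, had 7.63, 5.93 and 7.93 at 3 h, against 4.79, 4.07 and 3.75 at 0 h. Its change of 2.96 became 3.58 without the low 3 h replicate 2. Of 14 SWEET genes, a set added after values were seen, 4 rose, 2 fell and 8 were not called. That is 42.9% called, close to the 45.5% of all probe sets. Their median was -0.12, with SWEET17 (AT4G15920), of the vacuole, at 1.04. The number that fell was 1 without the 0 h replicate 1 or the 3 h replicate 1 or 2. TMT2 (AT4G35300), a sugar importer of the vacuole picked after its values were seen, rose by 1.38 ± 0.12.

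Among 12 genes found for nitrogen uptake and assimilation, not all of them of nitrogen, 2 rose, 2 fell and 8 were not called. That is 33.3% called, against 45.5% of all probe sets. The 2 that rose did so by at least 1. They were GTR1 (AT3G47960), a glucosinolate transporter, at 10.53, 10.53 and 10.32 at 3 h, against 7.91, 7.77 and 7.81 at 0 h, and AT3G21670 (NPF6.4), a nitrate transporter, at 2.63 ± 0.22. GTR2 (AT5G62680), which acts with GTR1, changed by -0.65 ± 0.17.

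Genes of the respiratory chain of mitochondria and of its bypass were mixed. Of 5 NAD(P)H dehydrogenases of the bypass, a set added after values were seen, 2 rose and 1 fell. NDB2 (AT4G05020) and NDC1 (AT5G08740), the second known from the chloroplast too, are enzymes of this kind, which do not pump protons. They rose by 2.16 ± 0.33 and 0.99 ± 0.14, while NDB3 (0.22) and NDB4 (-0.22) were not called. NDB1, at -0.32, kept its call only without the 0 h replicate 3 (-0.27 to -0.34 without each of the others). Of the succinate dehydrogenase genes, a set added after values were seen, 2 of 4 rose. SDH1-1 (AT5G66760) and SDH2-1 (AT3G27380), 2 of its subunits, rose by 1.49 ± 0.14 and 1.16 ± 0.14. CYTC-2 (AT4G10040), cytochrome c, had 9.91, 10.07 and 10.22 at 3 h, against 8.10, 7.84 and 8.11 at 0 h, and PDC2 (AT5G54960), pyruvate decarboxylase of the cytosol, rose by 2.31 ± 0.20, both picked after their values were seen.

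**Figure D4:**
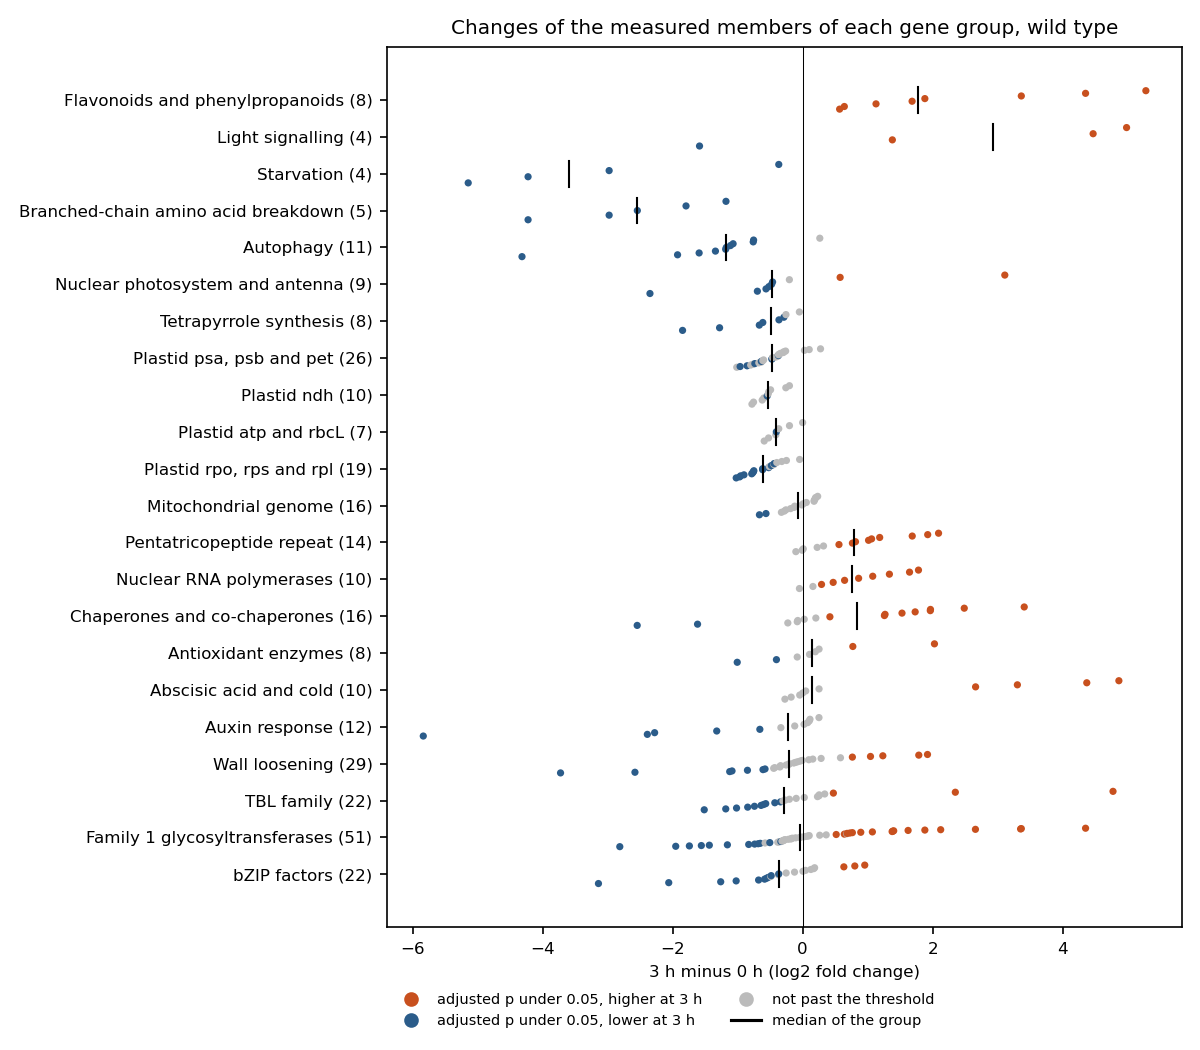
Each point is the log2 fold change, 3 h minus 0 h, of 1 measured gene of the group named at left (number of genes in brackets), coloured by limma's adjusted p, and the black bar is the group's median. All 8 flavonoid genes lie above 0, and 10 of 11 autophagy genes lie below it and were called.

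The response was then set beside that of the other lines, whose 24 arrays are separate from the 6 of wild type. Of the 3801 probe sets that changed by at least 1 in wild type, 3702 were called with the same sign in 35S:MBS1, while the mutant mbs1-1 shared 3596 and its derivative with an RNAi against MBS2 shared 3594. The smallest number, 3543, was that of flu. The opposite sign was called for 15 in flu, 5 in the RNAi line and 0 in the other two. Over all probe sets the changes in wild type correlated with those in 35S:MBS1 at r = 0.959, with the RNAi line at 0.923, with mbs1-1 at 0.915 and with flu at 0.842, given as a description, since probe sets are not independent.

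Against the mean response of the other 4 lines 15 probe sets differed (0.0659%), with 1626 at an unadjusted p under 0.05, and 6 of the 15 were matched to 1 gene (0.0449% of named genes). PDF1.4 (AT1G19610), a plant defensin, fell further in wild type, with a difference of responses of -1.44 (adjusted p = 0.0229). GSTU28 (AT1G53680), a glutathione transferase, and UGT84A1 rose less, with -1.57 and -0.89. AT4G31875 (-1.38), AT3G06760 (-0.70) and AT3G52070 (1.52) made up the 6. Each of these 6 calls was lost when at least 1 wild-type array was left out, and the number of probe sets called was 0 without the 3 h replicate 2, 1 without the 0 h replicate 1 and 24 without the 3 h replicate 3.

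Against flu 1912 probe sets differed (8.41%, and 7.64% of named genes), 745 with the higher and 1167 with the lower value in wild type. The higher ones made up 39.0% of these calls, against 52.0% with quantile normalization and 56.1% with median centring. The higher calls numbered 461, 471 and 490 without the flu 3 h replicate 3, the wild-type 0 h replicate 3 or the wild-type 3 h replicate 2. Seedlings of flu gather protochlorophyllide in darkness and form singlet oxygen when light returns. Of the 1187 that also changed in wild type, 325 rose less and 332 rose more than in flu, 354 fell more and 176 fell less. The lowest differences were those of AT1G52560, AT2G38240 and ATHSP22.0. AT2G38240 had 3.93, 3.99 and 3.95 at 3 h, against 3.57, 3.11 and 3.39 at 0 h in wild type, where it was dim, and its change of 0.60 was not called (it was with the compared arrays only, adjusted p = 0.00686). It changed by 5.26 in flu, a difference of -4.66 ± 0.75 (adjusted p = 2.23e-04). That difference was -5.61, -5.26 and -3.99 without the flu 0 h replicate 2, the flu 3 h replicate 2 or the flu 3 h replicate 3. AT1G52560 had 4.28, 4.52 and 4.28 at 3 h, against 5.13, 4.39 and 7.93 at 0 h in wild type, and its groups overlapped. Its change there of -1.45 (adjusted p = 0.0476) was -0.40 without the 0 h replicate 3, and its call was lost without that array or any single 3 h array, with the compared arrays only, with quantile normalization, with a replicate block and with a trended prior.

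The difference for AT1G52560 was -6.56 (adjusted p = 1.45e-05), and -5.50 and -7.27 without the 0 h replicate 3 or 2. That for ATHSP22.0 was -4.57 (adjusted p = 0.00825). It was not called with the compared arrays only (adjusted p = 0.0893), and was -2.94 without the 0 h replicate 3, -5.38 and -5.39 without the 0 h replicate 2 or 1. The 3 highest differences were those of AT5G61590 (DEWAX), a repressor of wax synthesis, AT3G52070 and TRY (AT5G53200), a repressor of trichome fate. AT5G61590 fell by 2.29 in wild type and by 4.49 in flu, a difference of 2.19. TRY had 7.64, 7.82 and 7.27 at 3 h, against 5.87, 6.37 and 5.85 at 0 h in wild type, where it rose by 1.55 ± 0.34, and changed by -0.59 in flu, a difference of 2.14 (adjusted p = 0.00478).

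**Figure D5:**
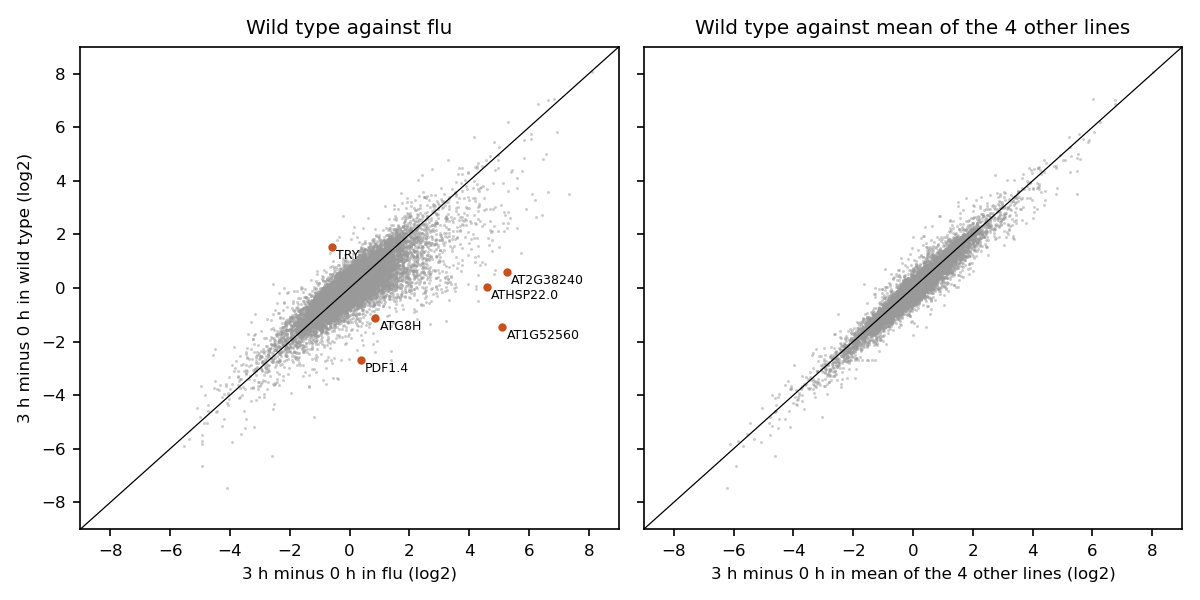
Each point is 1 probe set, with its log2 fold change (3 h minus 0 h) in wild type on the y axis and that in flu (left) or the mean of the 4 other lines (right) on the x axis, and the line marks equal changes. AT1G52560, AT2G38240, ATHSP22.0, PDF1.4, ATG8H and TRY are marked in the left panel, away from the line.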

How the data were processed

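Per the labels, the NucleoSpin RNA Plant kit gave the total RNA, and biotin was added to 3.95 µg of cDNA with NuGEN's Encore module. Each deposited column holds log2 signal of ATH1 probe sets, made with RMA in affy, per the submitters' processing notes, with versions not given in the sources used here. No scanner files were used. Precision is limited by having 3 arrays in a group, and 0 columns of values were left unused.

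64 control probe sets were set aside, and of the other 22746 the platform annotation matched 13513 to 1 gene, 503 to several and 8730 to none. Many well-known light genes are among those not matched and are not analysed here. Only probe sets with 1 gene were named, with locus and symbol from RefSeq for 13436 of them, and a gene with several probe sets stands by the one with the highest mean over the 30 arrays. Near-identical genes can share probes.

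Means of 10 groups were fitted to the 30 arrays with limma 3.58.1 in R 4.3.3 (eBayes), and p-values were adjusted by Benjamini-Hochberg over 22746 probe sets. The contrasts were 3 h minus 0 h in wild type, that response minus the one in flu, and that response minus the mean of the other 4 lines. The median residual SD was 0.200 with 20 residual and 5.23 prior degrees of freedom. The fit was tested on simulated data. Background was the 95th percentile of 27 Bacillus control probe sets. Tables and figures were made with Python 3.11.15.

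The members and lists were chosen with earlier results of these data known. Named are the 10 highest and 10 lowest called genes, from each list described up to 4 members whose called change was largest (lists of up to 12 measured members could be given whole), the 3 highest and 3 lowest genes of each difference, and COR15A, the single measured gene of 12 textbook genes. Other genes named were chosen after their values were seen. These are members beyond those 4 in longer lists, among them the small changes given as not called, and all members of lists said to be added.

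Replicate numbers come from the titles. Deviations of same-numbered 3 h and 0 h arrays correlated at 0.06, -0.08 and -0.04, so the numbers were not taken to pair arrays. Alternatives were the compared arrays alone, a replicate block, a filter at a mean level of 5, quantile normalization, median centring, a trended robust prior, probe sets with 1 gene only, both brighter arrays left out, and each array left out in turn.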

Additional observations from a re-analysis of the deposited data

Results flagged for a closer look

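Results are listed here whose response in wild type differed from another response by limma's test of the difference itself, at an adjusted p under 0.05. Values are the log2 fold change in wild type minus that in the other lines. Against the mean of the other 4 lines these were GSTU28 (-1.57), PDF1.4 (-1.44), AT4G31875 (-1.38), UGT84A1 (-0.89), AT3G06760 (-0.70) and AT3G52070 (1.52).

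Of the genes named above that were called higher in wild type, the response was below that of flu for CML37 (-3.35), LTI30 (-2.91), Fes1A (-1.89), GSTU28 (-1.69), AT1G71000 (-1.60), NDB2 (-1.52), AT4G31875 (-1.50), PUB19 (-1.40), JMT (-1.08), UGT84A1 (-1.05), UGT76E11 (-1.03), SDH2-1 (-0.98), ATMDAR2 (-0.91), GR1 (-0.66) and ATERDJ3B (-0.57). Among genes called higher in wild type it was above that of flu for TRY (2.14), ATPMEPCRB (1.94), LHCB4.3 (1.62), TBL26 (1.48), APL3 (1.12), Cpn60beta4 (1.07), CRR21 (1.02), AT2G23910 (0.92), AOR (0.77) and LPA66 (0.77). Among genes called lower in wild type, the response was lower than in flu for GH3.3 (-3.24), PDF1.4 (-3.07), BHLH101 (-2.56), ATG8H (-1.98), ATG8E (-1.78), AT4G27450 (-1.72), AT3G06760 (-1.42), WES1 (-1.20), nad5 (-1.16), BZIP28 (-0.93), MCCA (-0.93), AKINBETA1 (-0.89), APG8A (-0.80) and EIN3 (-0.55). It was higher than in flu, among genes called lower in wild type, for AT5G61590 (2.19), AT3G52070 (2.18), TBL45 (1.10), CHLM (0.87), HEME1 (0.61), CHLI2 (0.55) and PSB27 (0.44). The response of genes not called in wild type was below that of flu for COR47 (-1.42), HEMA2 (-1.04), NDB4 (-0.94) and MSRB3 (-0.68). It was above that of flu, among genes not called in wild type, for PRK (0.92) and RCA (0.53). AT1G52560 (-6.56) was also below flu, and its own call in wild type was lost under the settings given above. AT2G38240 (-4.66) was below flu and was called higher in wild type with the compared arrays only. ATHSP22.0 (-4.57), not called in wild type, was below flu, and with the compared arrays only that difference was not called.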

How the results depend on the processing

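No called value of a named gene changed its direction under these alternatives, and of 3064 recomputed values of named genes 79 lost the call and 3 gained it. The numbers of wild-type calls stayed within 1.5 times under all settings but 1. Restricted to probe sets with exactly 1 gene, 5698 were called, 2549 higher and 3149 lower, and 2021 by at least 1, because fewer were tested. Leaving out 1 array gave 9296 to 9984 calls, 4297 to 4733 higher, 4592 to 5653 lower and 3742 to 3897 by at least 1.

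For the difference from flu, 1077 were called with the compared arrays only (326 higher, 751 lower) and 969 with exactly 1 gene (385 higher, 584 lower). Quantile normalization gave 1217 higher and median centring 1331, and the cause was not tested. Without 1 array there were 1443 to 2085 calls, 461 to 939 higher and 879 to 1218 lower. For the difference from the other 4 lines, 5 were called with exactly 1 gene (1 higher, 4 lower), 1 (higher, and 0 lower) without both brighter arrays, and 0 to 24 without 1 array (0 to 14 higher, 0 to 10 lower).

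The replicate block, where numbers only name arrays, moved the calls to 10385 in wild type, 1935 against flu and 16 against the other 4 lines. With it AT1G52560 and CHLI2 were not called. The share of promoters with a motif was not run, since no promoter sequences were given. Dim probe sets limit what can be read: fold sizes of genes at the level of bacterial controls are uncertain.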

Other observations

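Some families of secondary metabolism had members called in both directions, and smaller shares called than the 45.5% of all probe sets. Of 28 cytochrome P450 genes 3 rose, none of them by at least 1, and 8 fell (39.3% called). The largest called changes were those of CYP71B22 (-2.85 ± 0.31), CYP71B24 (-1.61 ± 0.28), CYP718 (-1.11 ± 0.19) and CYP71B23 (-1.10 ± 0.23). Of 29 serine carboxypeptidase-like genes 5 rose and 4 fell (31.0%), and of 20 beta-glucosidases 4 rose and 3 fell (35.0%). The last 2 sets were put together after values were seen. Single genes outside every list, also picked then, changed strongly. THIC (AT2G29630), an enzyme of thiamin synthesis, had 10.26, 10.16 and 10.21 at 3 h, against 8.97, 8.80 and 8.63 at 0 h. LPR1 (AT1G23010), an oxidase known from the root's response to low phosphate, had 8.52, 8.72 and 8.41 at 3 h, against 5.99, 5.58 and 5.96 at 0 h. Neither gene's groups overlapped.

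Neighbouring genes were looked at along the chromosomes, in 5817 pairs of protein-coding genes that start next to each other in RefSeq's annotation. Of these 44 pairs had both members higher by at least 1, 70 had both lower and 68 had 1 of each. Of the neighbours of a lower gene 14.2% were lower too, against 8.45% of all places in pairs. Of the neighbours of a higher gene 9.25% were higher, against 8.17%. The pair with the largest smaller change was COR15B (4.86) and COR15A (4.37), and AT1G19530 (-5.17) and AT1G19540 (-3.03) came next. Whether adjacent copies share probes was not tested.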
